A study of Mus musculus with 4 samples.

Results

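The 10 genes described here are the 3 D cyclins, Ccnd1, Ccnd2 and Ccnd3, the CDK inhibitors Cdkn1a, Cdkn1b, Cdkn1c, Cdkn2a, Cdkn2b and Cdkn2c, and the transcription factor gene Trp63. They were taken by symbol, and all 10 were present among the 32285 features of the count matrices of the 4 libraries. They were followed across the cell types of the non-haematopoietic thymus and between genotypes. Single-cell RNA-seq had been performed on CD45-negative thymic cells of untreated, 6-month-old C57BL/6 mice, with 10 to 15 thymi pooled in each preparation. In 2 libraries the mice were wild type (WT 1 and WT 2, called mock in the labels), and in 2 they were homozygous for the LacZ allele of Foxn1 (Z/Z 1 and Z/Z 2), a hypomorphic allele of the master regulator of thymic epithelium carried in every cell of the animal. CD45-positive cells had been removed with magnetic beads and the remainder had been sorted, so cell type shares depended on digestion and on that sort. The labels gave the sex as male in one field and as female in another.

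D cyclins bind and activate CDK4 and CDK6, which phosphorylate the retinoblastoma protein and let a cell pass from G1 into S phase. The INK4 inhibitors (the Cdkn2 genes) bind CDK4 and CDK6 themselves and displace the cyclin, whereas the CIP/KIP inhibitors (the Cdkn1 genes) bind cyclin-CDK complexes more broadly. Trp63 encodes p63, the p53 relative required for the proliferative capacity of thymic and other stratified epithelia, and Cdkn2a and Cdkn1a are widely used as markers of cell senescence.

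Cdkn2a and Cdkn2b are neighbours on chromosome 4, and because they were the 2 members lower in Z/Z epithelium their promoters are given. On GRCm38 with the GENCODE annotation, Cdkn2a (ENSMUSG00000044303) spans chr4:89274471-89294653 and Cdkn2b (ENSMUSG00000073802) spans chr4:89306299-89311039, both on the minus strand with 11.6 kb between them. Cdkn2a has 2 start sites, 12.4 kb apart in RefSeq, whose transcripts encode Arf from the upstream first exon and p16Ink4a from the downstream one, and both share their 3′ end. The counts came from 3′ tags, so the 2 products could not be told apart, and neither could the long and short amino-terminal forms of p63. Each promoter below runs from 250 bases before to 50 bases after the start (RefSeq, GRCm38.p6, minus strand, 5′ to 3′), with the letters GGGCGG, the core of a GC box, in capitals.
Cdkn2a, upstream start, chr4:89294570-89294869: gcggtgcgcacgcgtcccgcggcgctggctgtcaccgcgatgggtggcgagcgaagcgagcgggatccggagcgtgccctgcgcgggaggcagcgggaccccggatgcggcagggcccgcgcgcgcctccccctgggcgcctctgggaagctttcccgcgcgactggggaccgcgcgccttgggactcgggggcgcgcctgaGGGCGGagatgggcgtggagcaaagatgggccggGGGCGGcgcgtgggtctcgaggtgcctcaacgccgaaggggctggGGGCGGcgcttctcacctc
Cdkn2a, downstream start, chr4:89282143-89282442: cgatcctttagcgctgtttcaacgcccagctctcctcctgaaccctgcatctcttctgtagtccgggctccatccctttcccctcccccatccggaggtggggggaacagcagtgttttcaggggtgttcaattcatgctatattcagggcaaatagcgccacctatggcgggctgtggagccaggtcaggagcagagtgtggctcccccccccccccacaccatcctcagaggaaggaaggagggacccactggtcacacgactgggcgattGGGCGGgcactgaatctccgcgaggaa
Cdkn2b, chr4:89310983-89311282: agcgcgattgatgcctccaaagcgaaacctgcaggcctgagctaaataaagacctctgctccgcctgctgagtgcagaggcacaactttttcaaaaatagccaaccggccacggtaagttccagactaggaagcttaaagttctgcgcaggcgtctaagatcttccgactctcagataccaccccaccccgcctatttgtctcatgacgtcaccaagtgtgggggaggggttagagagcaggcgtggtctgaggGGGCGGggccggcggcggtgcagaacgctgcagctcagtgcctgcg

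The upstream Cdkn2a window was 77% G or C with 45 CpG dinucleotides, against 60.3% and 12 at the downstream start and 57.7% and 18 at Cdkn2b. GGGCGG or its reverse complement CCGCCC occurred 3 times in the upstream window and once in each of the others, and was present in 35.7% of the 32851 RefSeq promoter windows of this length. CCAAT or ATTGG was found once, in the downstream Cdkn2a window, and in 37.4% of all windows. TATAAA or TTTATA was found in none of the 3 and in 13.6% of all windows. RefSeq promoter entries were matched for 6 of the 10 genes. Of the other members named most often below, Ccnd1 (ENSMUSG00000070348) lies at chr7:144929931-144939925, Cdkn1c (ENSMUSG00000037664) at chr7:143458339-143461050, Ccnd2 (ENSMUSG00000000184) at chr6:127125162-127152193 and Cdkn2c (ENSMUSG00000028551) at chr4:109660876-109667189, all on the minus strand. Genes annotated on the opposite strand overlap Ccnd1, Ccnd2, Ccnd3, Cdkn1a, Cdkn1c and Trp63.

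After filtering, 9846 cells remained (1458 and 456 of WT, 4455 and 3477 of Z/Z), with median depths of 7196 to 12949 UMIs. Thymic epithelial cells (TECs) numbered 549, 109, 1962 and 1556, fibroblasts 605, 187, 1215 and 734, and endothelial cells 108, 24, 698 and 667 in WT 1, WT 2, Z/Z 1 and Z/Z 2. The cells named TEC included a cluster of 1370 cells led by Pth that also scored for parathyroid markers, as described under the processing. In TECs the targeted gene Foxn1 was at 91.3 and 117 CPM (UMIs scaled to the total of the summed cells) in WT against 50.2 and 67.8 CPM in Z/Z. WT 1 and WT 2 shared 202 called barcodes, 16.9% of those of WT 2, and Z/Z 1 and Z/Z 2 shared 249, whereas libraries of different genotype shared 0 to 6. In these pairs the median ratio of UMIs between the libraries was 30.9 and 56.1, and 57 of the 109 TECs and 80 of the 187 fibroblasts of WT 2 carried a shared barcode. Where both cells of a pair were kept, they fell in the same lineage in 17 of 17 WT pairs and 28 of 33 Z/Z pairs. Calls in the lineage sums and between lineages that were lost without the shared barcodes are named beside the result.

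Across cell types of all genotypes, the D cyclins differed in where they were highest. Levels are the mean ± SD of CPM over libraries with at least 20 cells of a type, and the SD holds any genotype difference. Ccnd2 was at 829 ± 120 CPM in mural cells (n = 3), at 274 ± 51.6 in endothelial cells, 241 ± 84.3 in TECs and 153 ± 49 in fibroblasts (n = 4 each). The ranges of TECs overlapped those of endothelial cells and of fibroblasts, while mural cells lay above all 3. Ccnd3 was at 1079 ± 161 CPM in the remaining haematopoietic cells (n = 3) and at 203 ± 47.9 in mural cells (n = 3), and lay between 80.9 and 107 in TECs, endothelial cells and fibroblasts. Droplets without cells held 461, 689, 122 and 301 CPM of Ccnd3 in WT 1, WT 2, Z/Z 1 and Z/Z 2, above every value in those last 3 types. The part of such free RNA in these Ccnd3 levels was not tested. Ccnd1 averaged 88.1 ± 77.1 CPM in fibroblasts, 82.7 ± 20.3 in TECs and 71.6 ± 49.5 in endothelial cells, levels that did not differ beyond their spread, and 18.7 ± 12.3 in mural cells. Within TECs, Ccnd2 was highest in the proliferating-mTEC-like (mTECprol-like) cluster (1283 ± 95.2 CPM, n = 2). Ccnd1 was at 114 and 189 CPM in the mTECprol-like cells of WT 1 and Z/Z 2, and at 143 and 146 CPM in the aaTEC1-like cells, one of the age-associated TEC types, of Z/Z 1 and Z/Z 2. These means come from different libraries and the WT aaTEC1-like cells were too few to enter them, so no order of the TEC clusters is given for Ccnd1.

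Of the CIP/KIP genes, Cdkn1a, which encodes p21, a target of p53, averaged 1072 ± 66.9 CPM in mural cells (n = 3) and 764 ± 310 in endothelial cells, above 256 ± 47.3 in fibroblasts and 227 ± 74.8 in TECs (n = 4 each). The ranges of the first pair overlapped, as did those of the second pair, but those of endothelial cells (419 to 1150) and fibroblasts (195 to 304) did not. Cdkn1b, which encodes p27, was at 65.7 ± 10.1 CPM in TECs, 60.0 ± 12.2 in endothelial cells and 56.0 ± 7.43 in fibroblasts, with overlapping ranges (n = 4 each). It averaged 114 ± 30.0 in mural cells, of which the lowest library (78.9) lay within the range in TECs, and 255 ± 37.7 in haematopoietic cells (n = 3 each). Cdkn1c, the imprinted gene of p57, averaged 140 ± 113 CPM in endothelial cells, 139 ± 30.0 in TECs, 89.0 ± 22.9 in fibroblasts and 72.5 ± 30.9 in mural cells, and the ranges of neighbours in that order overlapped.

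The INK4 genes Cdkn2a and Cdkn2b were detected mainly in TECs and fibroblasts. Cdkn2a averaged 29.7 ± 24.6 CPM in TECs and 20.1 ± 8.98 in fibroblasts, against 0.522 ± 0.450 in endothelial cells and 0.585 ± 1.01 in mural cells. Cdkn2b, which encodes p15, averaged 32.0 ± 23.1 CPM in TECs and 13 ± 3.20 in fibroblasts. Among TEC clusters, both were highest in mTEC2-like cells, the cluster with markers of mature, Aire-stage medullary TECs, at 86.5 ± 19.7 CPM for Cdkn2a and 98.4 ± 29.5 for Cdkn2b (n = 4). For Cdkn2a the mTECprol-like cluster followed at 54.3 ± 6.47 CPM (n = 2) and the tuft-like cluster at 23.1 ± 16.2, whereas cTEC-like cells were at 0.336 ± 0.581 (n = 3). Over 26 cell clusters the gene whose level was most like that of Cdkn2a was Cdkn2b itself (Pearson's r = 0.91 on log2 of mean CPM plus 1), ahead of Nfasc (0.87) and Pmaip1 (0.86). This is a description, since the clusters come from the same 4 libraries and differ in depth. Cdkn2c, which encodes p18, was highest among TEC clusters in mTECprol-like cells (58.8 ± 24 CPM, n = 2). It averaged 29.8 ± 15.8 CPM in haematopoietic cells (n = 3), 23.4 ± 9.57 in TECs, 13.8 ± 11.3 in fibroblasts and 2.37 ± 2.22 in endothelial cells, and the ranges of the first 2 overlapped. A cluster of 29 cells of low depth in Z/Z 1, led by Cfd and given no lineage, was at 177 CPM (25 UMIs).

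Trp63 was highest in epithelial cells. It averaged 147 ± 24.7 CPM in TECs, with 110 as the lowest library, against 5.38 ± 2.5 in fibroblasts and 3.40 ± 1.47 in endothelial cells. With each cell thinned to 2000 UMIs, 14.6% to 22.9% of TECs had a Trp63 UMI, compared with 0.682% to 1.6% of fibroblasts, a type not expected to use the gene. Median depths before thinning were 6747 to 18795 UMIs in TECs and 10301 to 14676 in fibroblasts, and the unthinned shares were 34.1% to 55.2% and 3.13% to 6.12%. Within TECs it ranged from 1033 ± 57.6 CPM in an unnamed cluster led by Kctd16, through 375 ± 73.9 and 355 ± 47.0 in unnamed clusters led by Pth and C9, to 40.4 ± 11.2 in aaTEC1-like and 5.43 ± 0.421 in aaTEC2-like cells (n = 2 each, the Z/Z libraries). The aaTEC2-like level was within the range in fibroblasts (3.66 to 9.07). Whether the cluster led by Pth held parathyroid cells was not tested. The genes most like Trp63 over the 26 clusters were Mgat5b and Grhl2 (r = 0.95 each) and Mir205hg (0.94).

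**Figure D1:**
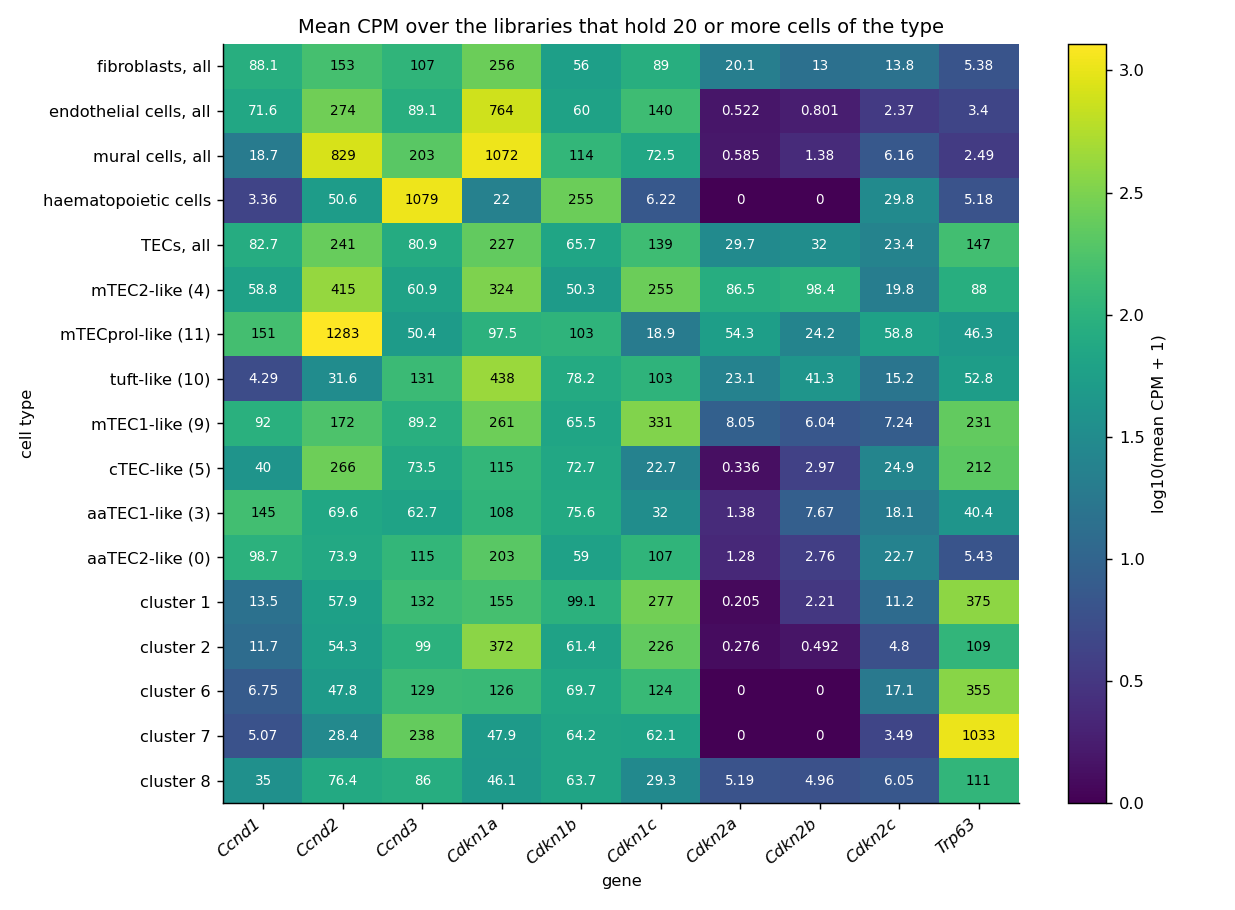
Grid of cell types and TEC clusters (rows) by the 10 genes (columns), with the mean CPM over libraries that hold at least 20 cells of the type written in each field and its colour set by log10 of mean CPM + 1. Cdkn2a and Cdkn2b are highest in mTEC2-like cells (86.5 and 98.4 CPM), and Trp63 is highest in cluster 7, led by Kctd16 (1033 CPM).

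To ask how the members differed with genotype, UMIs were summed per library within TECs, fibroblasts and endothelial cells, and Z/Z was compared with WT (2 libraries each) with edgeR's quasi-likelihood test and Benjamini-Hochberg adjustment over all genes tested. In TEC sums all 10 genes passed the filter on low counts. None was higher in Z/Z, where 9.70% of the 18956 genes tested were, and 2 were lower, where 11.1% of all genes were. The groups did not overlap in CPM for 6 of the 10, near the 67.4% of all genes. In fibroblast sums all 10 were tested, and 1 was higher (1.57% of 13847 genes) and 2 were lower (1.08%), with 5 of 10 not overlapping (50.0% of all genes). In endothelial sums 7 of the 10 were tested, and 1 was higher (0.574% of 11318 genes) and none was lower (0.486%), with 6 of 7 not overlapping (53.8% of all genes). Of these 7, Cdkn2c had 1 and 0 UMIs in WT against 25 and 17 in Z/Z, so it passed the filter through the Z/Z libraries alone. Its non-overlap and its log2 fold change (2.15) follow from that, and both enter the endothelial count and median. The median log2 fold change of the members was -0.25 in TECs, -0.00 in fibroblasts and 0.87 in endothelial cells, against -0.00, 0.01 and 0.03 over all genes. In a lineage sum a different mix of subtypes and a different level within each cannot be told apart, so values within clusters are given beside the results that have them.

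The genotype effects themselves were compared between lineages in one model with an interaction term. They differed between TECs and fibroblasts for 5 of the 10 members (11.3% of all genes), between TECs and endothelial cells for 3 of the 7 tested in both (8.32% of all genes), and between fibroblasts and endothelial cells for 3 of 7 (1.40% of all genes). Of the last 3, Cdkn2c had 1 UMI in the endothelial sum of WT 1 and 0 in that of WT 2. Each library contributes to every lineage, so these comparisons share their libraries. Without shared barcodes the call was lost for Cdkn2b (edgeR adjusted p = 0.130) and Cdkn2c (0.205) between TECs and fibroblasts, for Cdkn1a (0.245) and Cdkn1c (0.106) between TECs and endothelial cells, and for Cdkn2c (0.0672) between fibroblasts and endothelial cells.

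**Figure D2:**
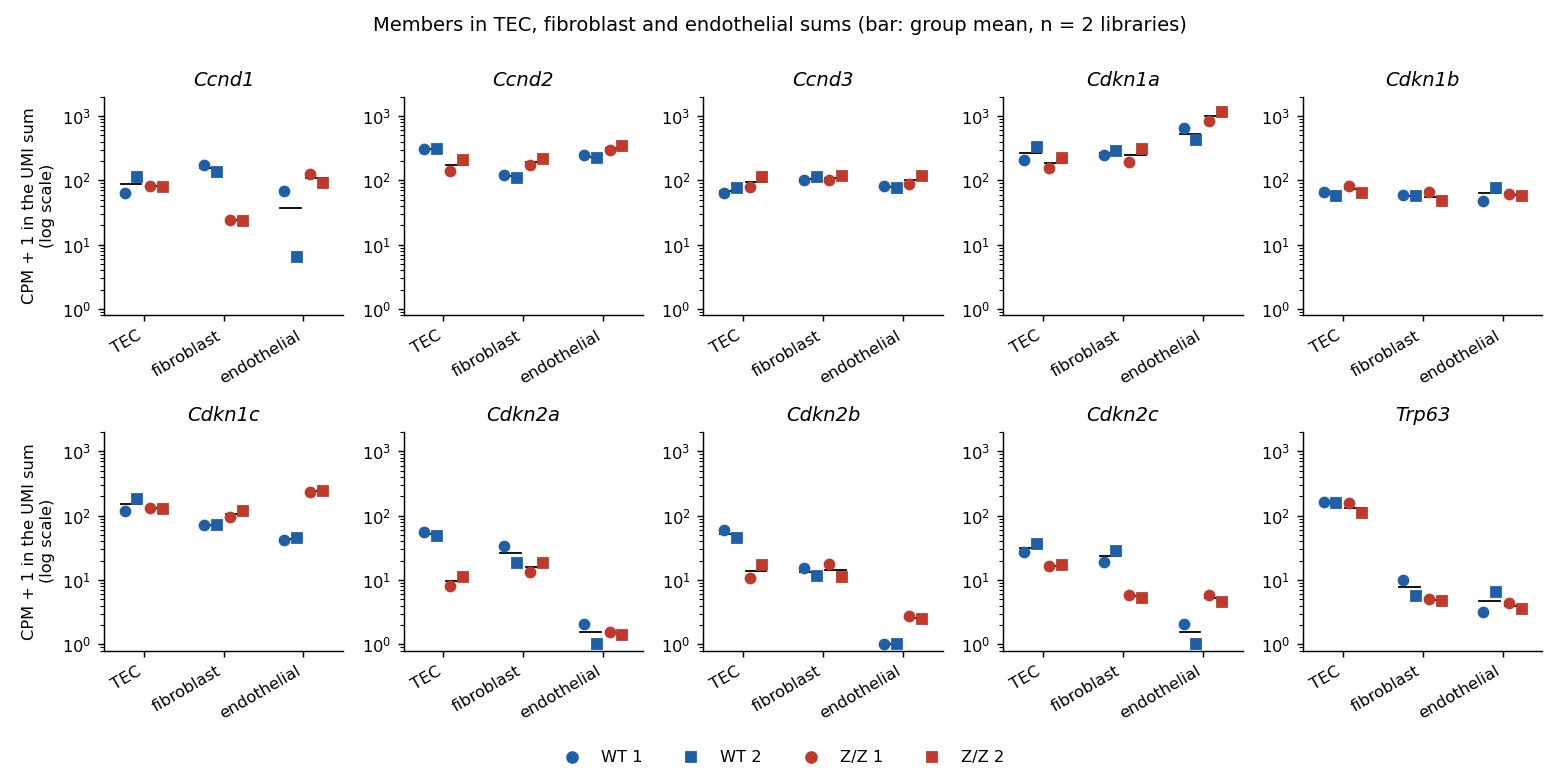
CPM + 1 (log axis) of each of the 10 genes in the sums of TECs, fibroblasts and endothelial cells, with 1 point per library and a bar at the mean of each group of 2. In fibroblasts both Z/Z points of Ccnd1 (23.5 and 22.1 CPM) lie under both WT points (173 and 134), and in endothelial cells both Z/Z points of Cdkn1c (232 and 242) lie over both WT points (40.3 and 43.6).

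Among the D cyclins, Ccnd1 was lower in Z/Z fibroblasts, by the largest fold of any member in any lineage. Its level in the 2 WT libraries was 173 and 134 CPM, and in the 2 Z/Z libraries it was 23.5 and 22.1 CPM. All Z/Z values were thus under all WT values, and the mean was 6.48-fold higher in WT (log2 fold change -2.70, SE 0.18, edgeR adjusted p = 0.000297). The call was kept in 17 of 18 alternatives, that without shared barcodes included, and was lost within the Opcml cluster described below (-0.72, adjusted p = 0.321). The share of fibroblasts with a Ccnd1 UMI at 2000 UMIs per cell was 20.2% and 16.6% in WT against 2.64% and 2.46% in Z/Z (two-sided exact permutation p = 0.333, the smallest that 2 against 2 allows). In mural cells, where Ccnd1 was low, that share was 2.24% and 3.88% in Z/Z, so the Z/Z fibroblast shares lay at that level, at median depths of 10301 and 10503 UMIs in Z/Z fibroblasts and 5864 and 5597 in Z/Z mural cells. The cell with most Ccnd1 UMIs held at most 4.90% of the Ccnd1 UMIs of a library's fibroblasts.

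The Ccnd1 difference was largest in the fibroblast cluster led by Cxcl14, the most numerous one over the 4 libraries together. There Ccnd1 was at 275 and 158 CPM in WT 1 and WT 2 and at 10.2 and 23.2 in Z/Z 1 and Z/Z 2 (log2 fold change -3.91, SE 0.36, edgeR adjusted p = 0.000298). In the cluster led by Inmt it was at 52.0 and 102 CPM in WT against 13.5 and 9.73 in Z/Z (-2.5, SE 0.39, adjusted p = 0.0191). In the cluster led by Opcml, which carries the adventitial marker Pi16, it was at 55.9 and 62.7 in WT against 45.9 and 21.6 in Z/Z (-0.72, SE 0.34, adjusted p = 0.321). The groups did not overlap in any of the 3 clusters, and the difference between clusters was not tested. In the Cxcl14 cluster 4 of 10 members were called (4.15% of all genes), in the Inmt cluster 1 of 9 (0.972%) and in the Opcml cluster 0 of 7 (2.01%).

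Ccnd2 took the opposite direction in fibroblasts. It was at 118 and 109 CPM in WT against 171 and 214 in Z/Z, with no overlap and a 1.76-fold higher level in Z/Z (0.81, SE 0.17, edgeR adjusted p = 0.0422). In the Cxcl14 cluster it was at 70.4 and 71.6 CPM in WT against 139 and 166 in Z/Z (1.09, SE 0.18, adjusted p = 0.00718). The call on all fibroblasts lay close to the threshold and was lost in 9 of 18 alternatives, among them those without WT 1 (adjusted p = 0.126), WT 2 (0.136) or Z/Z 2 (0.132) and that without shared barcodes (0.0926). Ccnd3 was at 99.8, 110, 101 and 116 CPM in WT 1, WT 2, Z/Z 1 and Z/Z 2, with overlapping groups.

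**Figure D3:**
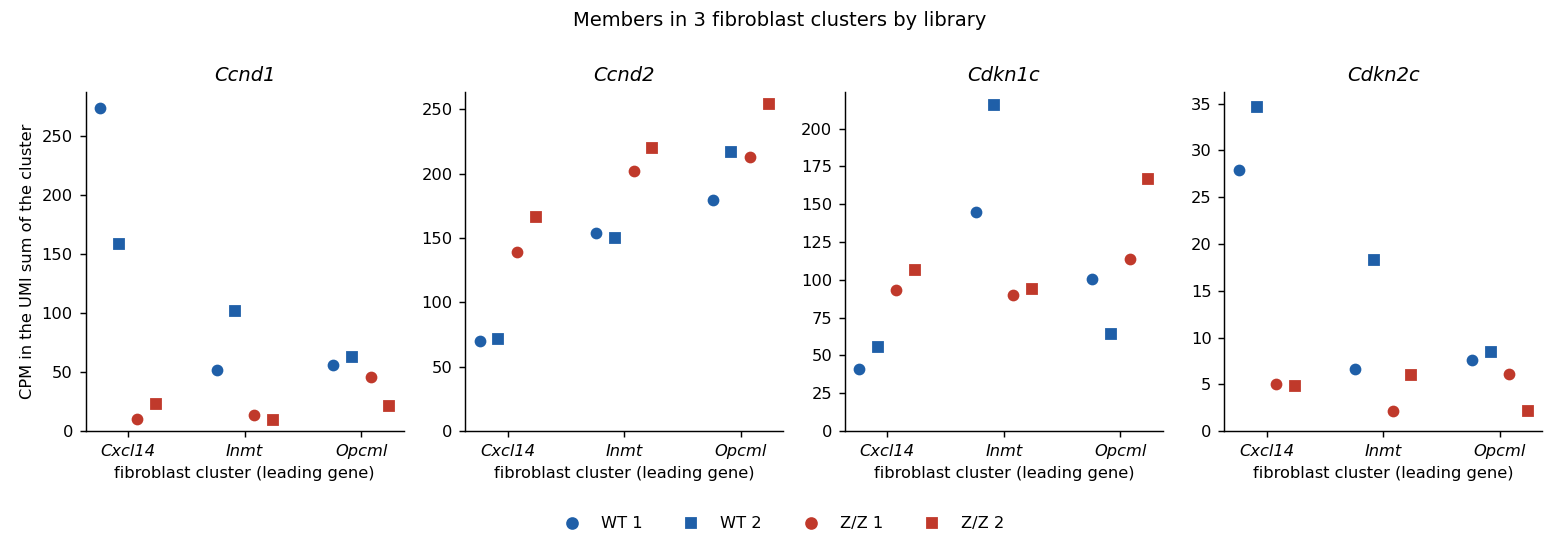
CPM (linear axis) of Ccnd1, Ccnd2, Cdkn1c and Cdkn2c in the UMI sums of the 3 fibroblast clusters with at least 20 cells in every library, 1 point per library. Ccnd1 in the Cxcl14 cluster is at 275 and 158 CPM for the WT points, against 10.2 and 23.2 for Z/Z, while the Opcml cluster shows a smaller gap (55.9 and 62.7 against 45.9 and 21.6).

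In TECs the D cyclins did not pass the test. Ccnd2 was at 311 and 310 CPM in WT against 140 and 204 in Z/Z, without overlap (log2 fold change -0.71, SE 0.20, edgeR adjusted p = 0.0604). This value was called in 5 of 18 alternatives, DESeq2 among them (adjusted p = 0.0127). The mTEC2-like cells, which were 45.2% and 41.3% of the TECs in WT against 2.14% and 4.11% in Z/Z, held 60.0% and 64.7% of the Ccnd2 UMIs of WT TECs and 14.1% and 19.5% of those of Z/Z TECs. Within these cells Ccnd2 was at 360 and 381 CPM in WT against 478 and 439 in Z/Z (0.36, adjusted p = 0.548). The mTECprol-like cluster, the highest in Ccnd2 (1283 ± 95.2 CPM over WT 1 and Z/Z 2), held 25 and 4 cells in WT against 18 and 20 in Z/Z. Its share of the TECs also differed between the genotypes, as given below. Ccnd1 was at 61.6, 110, 80.4 and 78.3 CPM in WT 1, WT 2, Z/Z 1 and Z/Z 2, with the WT libraries on either side of the Z/Z ones, and Ccnd3 at 62.7 and 73.8 in WT against 77.3 and 110 in Z/Z (0.60, SE 0.21, adjusted p = 0.0970). Droplets without cells held more Ccnd3 than these TEC sums in every library, as given above. In aaTEC1-like cells Ccnd1 was at 783 and 673 CPM in the 15 and 9 cells of WT 1 and WT 2 and at 143 and 146 CPM in the 252 and 187 cells of Z/Z 1 and Z/Z 2. The WT libraries held under 20 such cells each, so no test was made.

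In endothelial cells no D cyclin passed the test. The Ccnd1 level was 67.5 and 5.45 CPM in WT 1 and WT 2, against 122 and 91.2 in the Z/Z libraries, without overlap (log2 fold change 1.02, SE 0.42, edgeR adjusted p = 0.229). The WT 2 value was 1 UMI in 24 cells, and the comparison passed the threshold in 3 of 15 alternatives. Ccnd2 was at 243 and 223 CPM in WT against 290 and 339 in Z/Z (0.42, adjusted p = 0.338), and Ccnd3 at 79.5 and 76.2 in WT against 86.6 and 114 in Z/Z (0.34, adjusted p = 0.50). The genotype effect on Ccnd1 differed between fibroblasts and endothelial cells by -3.87 on the log2 scale (SE 0.37, adjusted p = 4.42e-06, called in 14 of 14 alternatives). Between TECs and fibroblasts it differed by 2.75 (SE 0.36, adjusted p = 0.00169), a call lost without thymocyte-positive cells (1.5, adjusted p = 0.174). For Ccnd2 the effect in TECs minus that in fibroblasts was -1.6 (SE 0.20, adjusted p = 0.00138), and minus that in endothelial cells -1.45 (SE 0.31, adjusted p = 0.00239).

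Among the CIP/KIP inhibitors, Cdkn1c was higher in Z/Z endothelial cells. The 2 WT libraries gave 40.3 and 43.6 CPM (37 and 8 UMIs), and the 2 Z/Z libraries 232 and 242 CPM (1202 and 1159 UMIs). Every Z/Z value was above every WT value, and the level was 5.73-fold higher in Z/Z (log2 fold change 2.52, SE 0.26, edgeR adjusted p = 0.00475), called in 15 of 15 alternatives, that without shared barcodes included, with values of 2.45 to 3.57. The share of endothelial cells with a Cdkn1c UMI at 2000 UMIs per cell was 8.57% and 8.33% in WT against 32.0% and 31.6% in Z/Z (exact permutation p = 0.333). With free RNA subtracted the log2 fold change was 2.65 (adjusted p = 0.00178). Summed mural cell markers in the endothelial sums were 109 and 10.9 CPM in WT against 339 and 273 in Z/Z, with Acta2, Myl9, Notch3, Cspg4 and Kcnj8 at 0 in WT 2. Cdkn1c in mural cells themselves was at 36.8 CPM in WT 1 and 86.9 in WT 2 (11 cells), against 91.0 and 89.8 in Z/Z 1 and Z/Z 2. The part of mural RNA in the endothelial result was not tested.

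By endothelial cluster, Cdkn1c was highest in the cluster led by Gpihbp1, a gene of capillary endothelium, with 57.1 and 95.1 CPM in the 58 and 14 cells of WT 1 and WT 2, against 359 and 420 CPM in the 410 and 408 cells of the Z/Z libraries. The cluster led by Stmn2 had 44.9 CPM in WT 1, against 265 and 146 CPM in the Z/Z libraries, and held 0 UMIs in the 5 cells of WT 2. In the cluster led by Selp, a venular gene, it was at 14.4 CPM in WT 1 (4 UMIs) and at 19.3 and 28.7 in Z/Z. Z/Z was thus above WT 1 in each of the 3 clusters, by the smallest margin in the Selp cluster. WT 2 had too few cells per cluster for a test.

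**Figure D4:**
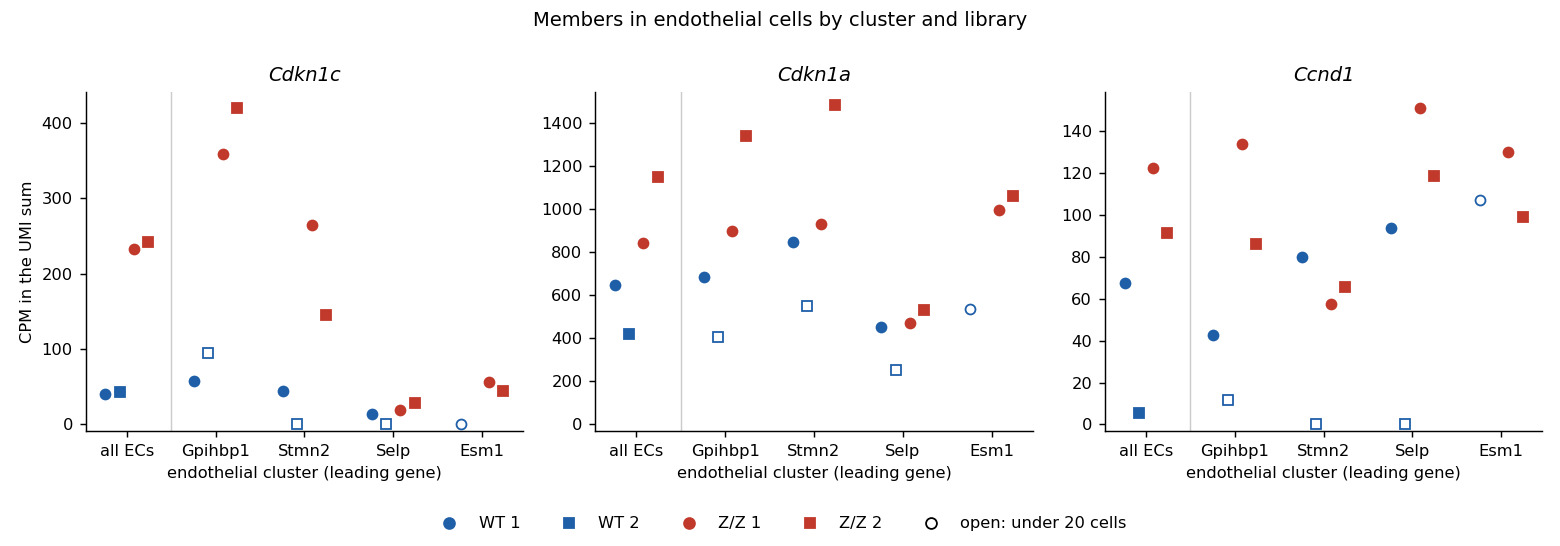
CPM (linear axis) of Cdkn1c, Cdkn1a and Ccnd1 in all endothelial cells (ECs) and in 4 endothelial clusters, 1 point per library, with open points for under 20 cells. In the Gpihbp1 cluster Cdkn1c is at 57.1 and 95.1 CPM for the WT points, against 359 and 420 for Z/Z.

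Cdkn1c did not pass the test in fibroblasts or TECs. In fibroblasts it was at 70.4 and 71.3 CPM in WT against 95.6 and 119 in Z/Z, without overlap (0.65, SE 0.17, edgeR adjusted p = 0.0856). The values lay in opposite directions in different clusters. In the Cxcl14 cluster it was at 41.2 and 55.7 CPM in WT against 93.1 and 107 in Z/Z (1.05, SE 0.21, adjusted p = 0.0201), and in the Inmt cluster at 145 and 215 in WT against 90.0 and 93.8 in Z/Z (-0.83, SE 0.23, adjusted p = 0.141). In TECs it was at 116, 183, 130 and 128 CPM in WT 1, WT 2, Z/Z 1 and Z/Z 2 (-0.06, SE 0.24, adjusted p = 0.873). A single cell held 569 of the 1406 Cdkn1c UMIs of WT 1 TECs and another 243 of the 462 of WT 2. Without the cell highest in Cdkn1c in each library, the TEC values were 69.4 and 88.2 CPM in WT against 118 and 111 in Z/Z, without overlap. At 2000 UMIs per cell, 4.80% and 4.59% of WT TECs and 15.8% and 15.0% of Z/Z TECs had a Cdkn1c UMI (exact permutation p = 0.333). Free RNA was estimated at 10.1% and 2.59% of the UMIs of WT TECs against 23.5% and 15.8% of those of Z/Z TECs, and droplets without cells held 39.0 and 23.4 CPM of Cdkn1c in WT against 89.2 and 114 CPM in Z/Z. The estimate sets thymocyte-gene UMIs in the cells against those in such droplets, and so counts all of them as free RNA. In the same Z/Z libraries it was 5.31% and 7.48% for fibroblasts, 10.8% and 10.9% for endothelial cells and 5.52% and 12.9% for mural cells. Whether the TEC values are too high was not tested. No thinned haematopoietic cell had a Cdkn1c UMI (0 of 86, 34, 6 and 32 cells in the 4 libraries, which allows shares of up to 3.49%, 8.82%, 50% and 9.38%), at median depths of 5684, 5141, 3240 and 2860 UMIs. Without thinning, the 89, 38, 6 and 34 haematopoietic cells held 2, 2, 0 and 1 Cdkn1c UMIs. The part of free RNA in the shares was not tested, and with free RNA subtracted from the sums Cdkn1c was again not called (-0.10, adjusted p = 0.794). The genotype effect on Cdkn1c in endothelial cells exceeded that in TECs (TEC minus endothelial -2.70, SE 0.35, edgeR adjusted p = 3.96e-06) and that in fibroblasts (fibroblast minus endothelial -1.90, SE 0.30, adjusted p = 0.00156).

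Cdkn1a did not pass the test in any lineage. It was at 204, 330, 153 and 219 CPM in the TECs of WT 1, WT 2, Z/Z 1 and Z/Z 2 (-0.37, SE 0.29, edgeR adjusted p = 0.385) and at 247, 280, 195 and 304 in fibroblasts, with overlapping groups in both. In endothelial cells it was at 646 and 419 CPM in WT against 841 and 1150 in Z/Z, without overlap (0.87, SE 0.27, adjusted p = 0.125). The effects in TECs and endothelial cells differed by -1.52 (SE 0.37, adjusted p = 0.00758). Cdkn1b was at 56.4 to 80.1 CPM in TECs, 46.1 to 64.1 in fibroblasts and 46.8 to 76.2 in endothelial cells, with log2 fold changes of 0.39, 0.01 and 0.10 and no call.

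Among the INK4 inhibitors, Cdkn2a and Cdkn2b were both lower in the sums of Z/Z TECs. The 2 WT libraries had 54.7 and 46.8 CPM of Cdkn2a (662 and 118 UMIs), and the 2 Z/Z libraries 7.02 and 10.1 CPM (143 and 184 UMIs). It was 5.40-fold higher in WT (log2 fold change -2.43, SE 0.25, edgeR adjusted p = 0.00846). Cdkn2b was at 58.7 and 43.7 CPM in WT against 9.67 and 16.1 in Z/Z, 3.63-fold higher in WT (-1.86, SE 0.30, adjusted p = 0.0173). Neither gene's groups overlapped. At 2000 UMIs per cell the share of TECs with a UMI was 6.09% and 6.42% in WT against 0.519% and 0.602% in Z/Z for Cdkn2a, and 6.83%, 5.5%, 0.986% and 1.20% for Cdkn2b (exact permutation p = 0.333 each). In Z/Z endothelial cells, a type with almost no UMIs of either gene, the shares were 0.146% and 0.152% for Cdkn2a and 0.438% and 0.152% for Cdkn2b. Both directions held in every fit of the TEC sums, but the Cdkn2a call was lost without proliferation-positive cells (-1.62, adjusted p = 0.113) and the Cdkn2b call without Z/Z 1 (-1.53, adjusted p = 0.0760). Without shared barcodes, which took 57 of the 109 TECs of WT 2, neither was called (Cdkn2a -2.20, adjusted p = 0.111, and Cdkn2b -1.54, adjusted p = 0.233), and in that fit 1 gene of all tested was called.

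Most UMIs of both genes came from mTEC2-like cells, which held 84.6% and 89.0% of the Cdkn2a UMIs of WT TECs and 65.7% and 58.7% of those of Z/Z TECs, and 85.4%, 69.1%, 50.3% and 68.4% of the Cdkn2b UMIs of WT 1, WT 2, Z/Z 1 and Z/Z 2. They numbered 248 and 45 cells in WT against 42 and 64 in Z/Z. Within them Cdkn2a was at 89.4 and 79.1 CPM in WT against 112 and 65.3 in Z/Z, with overlapping groups (0.11, edgeR adjusted p = 0.930), and Cdkn2b at 96.7 and 57.3 in WT against 118 and 121 in Z/Z (0.67, adjusted p = 0.534). In this cluster 0 of the 10 members were called in either direction, as were 0% of the 11837 genes tested in each direction, with 1168 genes at an unadjusted p under 0.05 and 97 called by DESeq2. The groups did not overlap for 3 of the 10, and the members' median log2 fold change was 0.17, against 0.01 over all genes.

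In the TECs left after taking out the mTEC2-like cells, a setting chosen after seeing the data, Cdkn2a and Cdkn2b remained lower in Z/Z (-1.97, adjusted p = 0.0440, and -1.96, adjusted p = 0.0221). That remainder also differed in makeup: tuft-like cells were 6.74% and 8.26% of WT TECs and 0.357% and 1.61% of Z/Z TECs, and mTECprol-like cells 4.55% and 3.67% against 0.917% and 1.29%. With every TEC cluster given the same weight over the 10 clusters with enough cells in WT 1, Z/Z 1 and Z/Z 2, the log2 differences were -0.41 and -0.16, and no test was made.

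**Figure D5:**
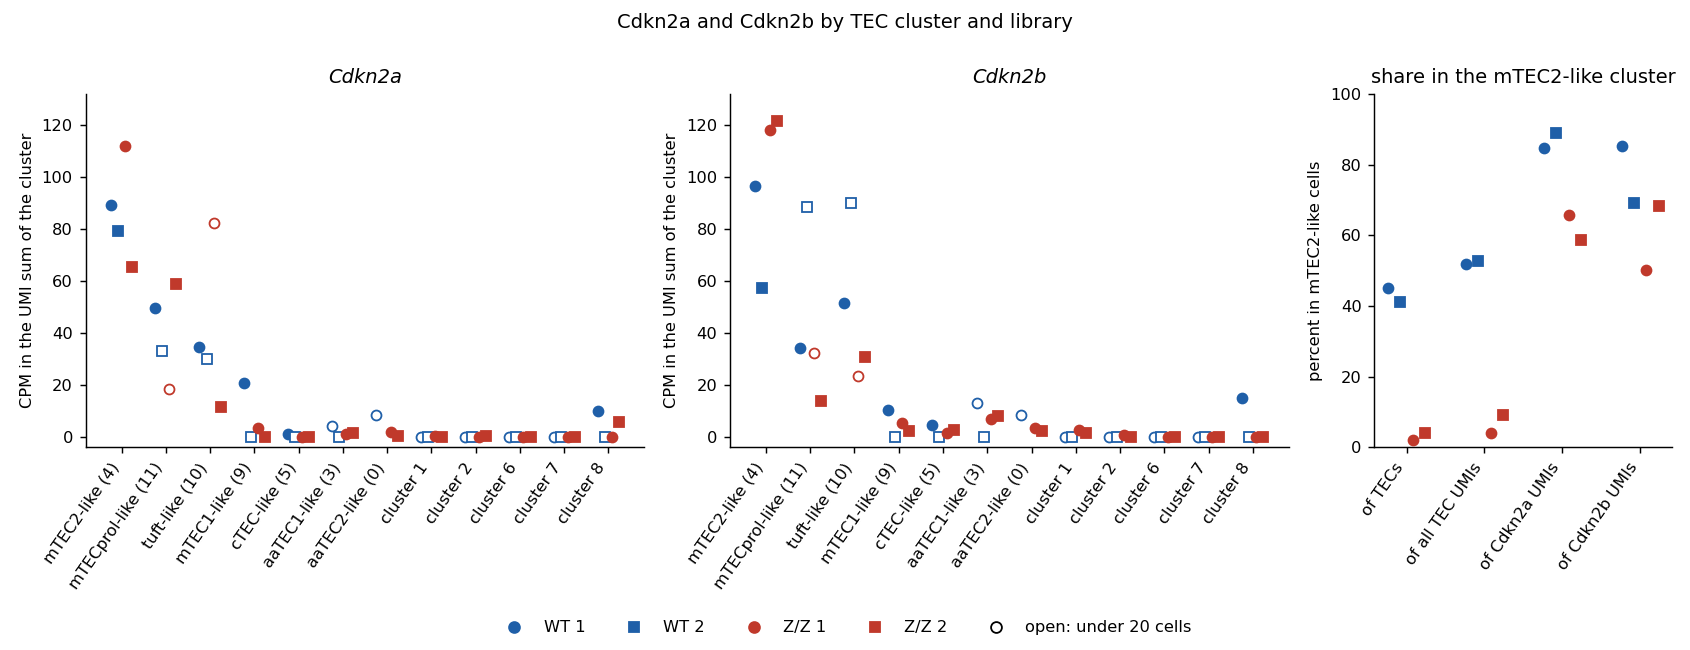
CPM (linear axis) of Cdkn2a and Cdkn2b in the UMI sum of each TEC cluster, 1 point per library with open points for under 20 cells, and, at the right, the percent of TECs, of TEC UMIs and of each gene's UMIs that lie in mTEC2-like cells. In these cells Cdkn2a is at 65.3 to 112 CPM and Cdkn2b at 57.3 to 121 over both genotypes, while they make up 45.2% and 41.3% of the WT TECs, against 2.14% and 4.11% of the Z/Z TECs.

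In fibroblasts Cdkn2a was at 33.1, 17.5, 12.4 and 17.6 CPM in WT 1, WT 2, Z/Z 1 and Z/Z 2 (-0.75, SE 0.30, edgeR adjusted p = 0.245) and Cdkn2b at 14.6, 10.6, 16.7 and 10.0 (0.12, adjusted p = 0.882), both with overlapping groups. The genotype effects in TECs were lower than those in fibroblasts by -1.78 for Cdkn2a (SE 0.31, adjusted p = 0.00594) and by -2.08 for Cdkn2b (SE 0.44, adjusted p = 0.0151). The endothelial sums held 1, 0, 3 and 2 Cdkn2a UMIs and 0, 0, 9 and 7 Cdkn2b UMIs in the 4 libraries, too few to test.

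Cdkn2c was lower in Z/Z fibroblasts, where it was at 18.4 and 27.7 CPM in WT against 4.95 and 4.34 in Z/Z (156, 76, 60 and 32 UMIs). No library of one group reached the range of the other, and the level was 4.64-fold higher in WT (log2 fold change -2.21, SE 0.30, edgeR adjusted p = 0.00713). In the Cxcl14 cluster it was at 27.9 and 34.6 CPM in WT against 5.00 and 4.78 in Z/Z (-2.64, SE 0.33, adjusted p = 0.00175). In the Inmt and Opcml clusters, with 5 to 21 UMIs per library, it was not called (-1.22, adjusted p = 0.502, and -0.83, adjusted p = 0.520). With cells thinned to 2000 UMIs the fibroblast call was lost (-1.75, adjusted p = 0.134). In TECs Cdkn2c was at 26.1 and 35.7 CPM in WT against 15.6 and 16 in Z/Z, without overlap (-0.81, SE 0.23, adjusted p = 0.0607). The effects in TECs and fibroblasts differed by 1.34 (SE 0.30, adjusted p = 0.0186), a call kept in 5 of 14 alternatives. In endothelial cells it was at 1.09 and 0 CPM in WT (1 UMI and 0) and 4.83 and 3.56 in Z/Z, and the fibroblast minus endothelial difference of -4.25 (SE 1.03, adjusted p = 0.0384) rests on that 1 WT UMI.

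Trp63 did not pass the test. In TECs it was at 161 and 160 CPM in WT against 156 and 110 in Z/Z, without overlap (log2 fold change -0.12, SE 0.21, edgeR adjusted p = 0.700). In fibroblasts it was at 9.07 and 4.73 CPM in WT against 4.04 and 3.66 in Z/Z (-0.85, SE 0.38, adjusted p = 0.289).

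Other genes of these pathways were read in the same fits. Of 20 further G1-S genes, all tested in TECs, 2 were higher in Z/Z and 2 lower, against 9.70% of all TEC genes higher and 11.1% lower. Cdkn2d, the remaining INK4 gene, was at 11.6 and 11.1 CPM in WT against 33.4 and 29.5 in Z/Z (1.61, SE 0.21, edgeR adjusted p = 0.0107), the opposite direction to Cdkn2a. Tfdp2, which encodes a partner of E2F, was also higher (0.87), whereas its relative Tfdp1 (-1.64) and Ccne1, which encodes cyclin E1 (-2.22), were lower. Of 14 p53 targets 4 were lower and none was higher, among them Mdm2, which encodes the ubiquitin ligase of p53, at 350 and 370 CPM in WT against 93.6 and 146 in Z/Z (-1.45, adjusted p = 0.0163), Sesn2 (-1.46) and Zmat3 (-1.33). The medians of the 2 lists were 0.05 and -0.51, against -0.00 for all genes. Within mTEC2-like cells, whose share of the TECs differed between the genotypes as given above, 0 of 14 p53 targets and 0 of the 18 G1-S genes tested were called, with medians of 0.14 and -0.03 against 0.01 for all genes.

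Of 17 genes linked to p63 in epithelia, 1 was higher in Z/Z TECs, the integrin gene Itgb4 (1.16, adjusted p = 0.0127), and 3 were lower, Krt15 (-2.45), Col17a1 (-2.23) and Krt14 (-1.12), with a list median of 0.11. Of 14 proliferation genes 2 were lower, Cdk1 (-1.87) and Mki67 (-1.02), with a median of -0.52. Both lists are read against the same 9.70% and 11.1% of all TEC genes. Within mTEC2-like cells none of the 16 p63-linked genes and 7 proliferation genes tested was called, with medians of 0.36 and -0.35. Outside TECs, 1 gene of these 4 lists was called, Eda2r, a p53 target, lower in Z/Z fibroblasts (28.2 and 28.0 CPM in WT, 10.2 and 10.3 in Z/Z, -1.39, edgeR adjusted p = 0.0112). Of 10 dissociation stress genes 8 were higher in Z/Z TECs (summed 7292 and 8602 CPM in WT, 18638 and 16164 in Z/Z) and 0 in fibroblasts and endothelial cells, and 0 of 10 in mTEC2-like cells. Of 12 thymocyte genes none was called in any lineage, and of 7 tested markers of other immune cells Lyz2 was lower in Z/Z TECs (-2.53). The part of stress in the members' values was not tested. The calls of Cdkn2a and Cdkn2b in TECs, of Ccnd1 and Cdkn2c in fibroblasts and of Cdkn1c in endothelial cells were kept with free RNA subtracted and without thymocyte-positive cells, while that of Ccnd2 in fibroblasts was kept in the first (adjusted p = 0.0297) and not in the second (0.0548).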

How the data were processed

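Single-cell 3′ RNA-seq was analysed from 4 libraries, 2 WT and 2 Z/Z, grouped by their genotype labels. The authors aligned reads with Cell Ranger to mouse GRCm38 (mm10) and deposited matrices of UMI counts, not normalized, with 1 row per gene, and the processing notes of the submitters give Cell Ranger 7.01 and GRCm38.p5. The 4 libraries are named as replicates 1 and 2 of each group, and each is 1 preparation of pooled thymi, so p-values measure the spread between these libraries. The libraries of a group share barcodes, so they may not be fully separate, and that spread may be understated. This was not tested. The 10 members, the gene lists and the tests were chosen with earlier results of these data known.

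Barcodes with more than 1000 genes and under 20% mitochondrial UMIs were kept (10245 of 13981). The 3.9% with the highest Scrublet score per library (399) were removed, since the automatic threshold marked 94. The 109 ribosomal protein and haemoglobin features were left out. Clusters came from scanpy 1.11.5 and leidenalg 0.10.2 (3500 variable genes, 35 components for all cells and 45 for TECs, 20 neighbours, resolution 1), with 195 marker and list genes, the members among them, held out. The thresholds on marker scores that gave clusters their names (0.1 for lineages, 0.55 for TEC types, at least 3 markers in 20% of cells) were set after seeing the data. A cluster of 947 cells led by Nos1 did not meet those for lineages (12, 0, 555 and 380 cells in WT 1, WT 2, Z/Z 1 and Z/Z 2). It was counted as TECs by a separate rule on aaTEC2 markers, Vim, and low Epcam and Pdgfra. Other clusters under the thresholds stayed unnamed. A Pth-led cluster of 1370 cells was named TEC (65, 15, 694 and 596 cells in WT 1, WT 2, Z/Z 1 and Z/Z 2). Its score was 0.387 for TEC markers and 0.673 for parathyroid markers, and 90.9% of its cells had an Epcam UMI. The paper removed parathyroid cells as contaminants, and their part in the TEC sums was not tested here. The study's own cell annotation was not used here, so class sizes can differ from it.

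UMIs were summed per library and lineage, and tested with edgeR 4.0.16 (TMM, filterByExpr, quasi-likelihood F test, R 4.3.3) with Benjamini-Hochberg adjustment over all genes and a threshold of 0.05. The interaction model had library, lineage and genotype-by-lineage terms. Cell types with under 20 cells in a library, mural cells among them, were not tested. The edgeR fit was tested on counts simulated from the TEC sums with known fold changes, and the fits of the other sums and the interaction model were not. Other genes were named by rank of fold change among called genes of each list, up to 3 per list and direction, and the genes most like a member by Pearson's r over the clusters. Shares of cells with a UMI were compared after thinning to 2000 UMIs, which left out 241 cells. Free RNA was estimated from droplets of at most 100 UMIs at 1.93% to 23.5% of the UMIs of a lineage. Alternatives were DESeq2 1.42.0, no filter on low counts, each library left out, a replicate block, 500 genes per cell, doublets kept, thinned cells, free RNA subtracted, and sums without thymocyte-positive cells, without proliferation-positive cells or without barcodes shared between libraries. Unplanned ones, counted with them, kept each shared barcode only in the library where it had most UMIs. For TECs they also left out mTEC2-like or aaTEC2-like cells or crossed the pairing, and for fibroblasts they were fits within each tested cluster. Summed TEC libraries held 2518888 to 20369732 UMIs, fibroblast sums 2747292 to 12124359 and endothelial sums 183644 to 5175167, the last range starting with the 24 cells of WT 2.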

Additional observations from a re-analysis of the deposited data

Results flagged for a closer look

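The results below are members whose genotype effect (log2 of Z/Z over WT) differed between 2 lineages by the interaction test (edgeR quasi-likelihood, Benjamini-Hochberg adjusted over all genes). Between TECs and fibroblasts, the effect on Ccnd1 in TECs minus that in fibroblasts was 2.75 (adjusted p = 0.00169), that on Ccnd2 -1.6 (0.00138), that on Cdkn2a -1.78 (0.00594), that on Cdkn2b -2.08 (0.0151) and that on Cdkn2c 1.34 (0.0186). The alternatives kept 13 of 14 calls for Ccnd1, Ccnd2 and Cdkn2a each, 9 of 14 for Cdkn2b and 5 of 14 for Cdkn2c.

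Between TECs and endothelial cells, the difference was -1.45 for Ccnd2 (adjusted p = 0.00239), -1.52 for Cdkn1a (0.00758) and -2.70 for Cdkn1c (3.96e-06), kept in 10, 8 and 12 of 14 alternatives. Between fibroblasts and endothelial cells, it was -3.87 for Ccnd1 (4.42e-06, kept in 14 of 14), -1.90 for Cdkn1c (0.00156, kept in 12 of 14) and -4.25 for Cdkn2c (0.0384, kept in 4 of 13). The last rests on 1 UMI in the WT endothelial sums, and Ccnd1 was at 1 UMI in the endothelial sum of WT 2.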

How the results depend on the processing

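Among the calls of the report, Cdkn1c in endothelial cells held in 15 of 15 alternatives and Ccnd1 in fibroblasts in 17 of 18, while Cdkn2a and Cdkn2b in TECs each held in 16 of 18, Cdkn2c in fibroblasts in 15 of 18 and Ccnd2 in fibroblasts in 9 of 18. Cdkn2a lost its call without proliferation-positive cells (-1.62, edgeR adjusted p = 0.113), Cdkn2b without Z/Z 1 (-1.53, adjusted p = 0.0760), and both without shared barcodes. Ccnd1 in fibroblasts lost its call in the Opcml cluster (-0.72, adjusted p = 0.321), and Cdkn2c there thinned (-1.75, adjusted p = 0.134) and in the Inmt (-1.22, adjusted p = 0.502) and Opcml (-0.83, adjusted p = 0.520) clusters. With every TEC cluster that has enough cells in all 4 libraries given equal weight, which left the mTEC2-like cluster alone, the TEC differences were 0.073 for Cdkn2a and 0.63 for Cdkn2b, the opposite sign, by the construction of that setting. The cause of the other changes was not tested.

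Genes called numbered 3943 in TECs, 366 in fibroblasts and 120 in endothelial cells. In TECs they were 2558 with free RNA subtracted, 1418 without thymocyte-positive cells, 880 without proliferation-positive cells, 1 without shared barcodes, 1135 without mTEC2-like cells and 438 to 3534 with 1 library left out, the lowest without Z/Z 1. In fibroblasts they were 1242 with no filter, 180 thinned, 239 without thymocyte-positive cells, 168 without proliferation-positive cells, 186 without shared barcodes and 152 (without WT 1) to 776 (without Z/Z 1) with 1 library left out. In endothelial cells they were 701 with no filter, 189 with doublets kept, 11 thinned, 25 without thymocyte-positive cells, 67 without proliferation-positive cells, 19 without shared barcodes and 56 (without Z/Z 1) to 429 (without WT 1) with 1 library left out. In mTEC2-like cells they were 97 by DESeq2 and 859 with no filter, against 0.

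Members called in TECs, 2 of 10, became 4 with no filter, 4 thinned, 0 without shared barcodes and 1 (without Z/Z 1) to 3 with 1 library left out. In endothelial cells, 1 of 7 became 3 with no filter and 1 to 3 (without WT 1) with 1 library left out. Genes whose effect differed between TECs and fibroblasts, 2093, became 3202 with no filter, 719 with free RNA subtracted, 1147 without thymocyte-positive cells, 633 without proliferation-positive cells, 574 without shared barcodes and 1276 to 1899 with 1 library left out, and the members among them, 5, became 3, 1 and 3 in the settings without thymocyte-positive cells, proliferation-positive cells or shared barcodes, and 3 to 5 with 1 library left out. Between TECs and endothelial cells, 1371 genes became 796 by DESeq2, 700 thinned, 508 with free RNA subtracted, 891, 545 and 571 in those 3 settings, and 91 to 1717 with 1 library left out, and 3 members became 1 with free RNA subtracted, 0 without proliferation-positive cells, 1 without shared barcodes and 1 to 4 with 1 library left out. Between fibroblasts and endothelial cells, 198 genes became 62 by DESeq2, 438 with no filter, 46 thinned, 94 without proliferation-positive cells and 18 to 201 with 1 library left out, and 3 members became 1 to 2 with 1 library left out.

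The libraries of both genotypes share replicate numbers, but same-numbered libraries did not deviate together (r of deviations -0.10 in TECs, -0.06 in fibroblasts and -0.01 in endothelial cells). Each r compares the WT pair with the Z/Z pair over genes, so it cannot tell whether same-numbered libraries were prepared together. With the replicate block, genes called were 2470 in TECs, 135 in fibroblasts and 252 in endothelial cells, members called in endothelial cells were 2, and Ccnd2 in fibroblasts lost its call (0.80, adjusted p = 0.130). With the pairing crossed, which was tried after seeing the data, 1815 genes were higher and 2053 lower in TECs.

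Members that were not called changed sign in some settings. In TECs, Ccnd1 (0.05) was -0.0032 with doublets kept, -0.31 thinned, -1.16 without thymocyte-positive cells, -0.38 without proliferation-positive cells, -0.29 without shared barcodes, -0.51 without mTEC2-like cells, -0.0027 without aaTEC2-like cells and -0.35 to 0.53 with 1 library left out. Cdkn1a (-0.37) was 0.19 without proliferation-positive cells, 0.45 without shared barcodes, 0.10 without mTEC2-like cells and -0.70 to 0.030 with 1 library left out. Cdkn1c (-0.06) was 0.017 thinned, 0.23 without thymocyte-positive cells, 1.85 without proliferation-positive cells (adjusted p = 0.0296), 0.93 without shared barcodes, 0.72 without mTEC2-like cells and -0.38 to 0.32 with 1 library left out. Trp63 (-0.12) was 0.24 without thymocyte-positive cells, 0.077 without aaTEC2-like cells and -0.40 to 0.12 with 1 library left out.

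In fibroblasts, Ccnd3 (0.10) was -0.086 thinned, -0.044 without shared barcodes and -0.0063 to 0.21 with 1 library left out. Cdkn1a (-0.02) was 0.015 with no filter, 0.017 with doublets kept, 0.047 thinned, 0.022 without shared barcodes, 0.11 in the Inmt cluster, 0.70 in the Opcml cluster and -0.38 to 0.27 with 1 library left out. Cdkn1b (0.01) was -0.23 in the Opcml cluster and -0.24 to 0.22 with 1 library left out, Cdkn1c was -0.83 in the Inmt cluster, and Cdkn2b (0.12) was -0.020 without thymocyte-positive cells, -1.11 in the Inmt cluster and -0.29 to 0.42 with 1 library left out. In endothelial cells Cdkn1b (0.10) was -0.24 to 0.29 with 1 library left out, and in mTEC2-like cells Cdkn2a (0.11) was -0.18 at resolution 0.5 and -0.31 to 0.46 with 1 library left out. A library left out leaves 1 in its group, which is then taken to vary like the other group. The endothelial sum of WT 2 rests on 24 cells.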

Other observations

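In the fibroblast cluster led by Postn, in which WT 2 had 11 cells and which was therefore not tested, Ccnd1 was at 213 and 179 CPM in WT 1 and WT 2 and at 95.3 and 117 CPM in Z/Z 1 and Z/Z 2. In endothelial cells of the Gpihbp1 cluster, Ccnd1 was at 42.8 CPM (18 UMIs) and 11.9 CPM (1 UMI) in the WT libraries and at 134 and 86.0 CPM in the Z/Z libraries. In the Stmn2 cluster Ccnd2 was at 499 and 384 CPM in WT, against 535 and 791 CPM in Z/Z, levels above those of the Gpihbp1 cluster in the same libraries (197, 178, 211 and 236 CPM). Within mTEC2-like cells Cdkn1c was at 108 and 331 CPM for WT 1 and WT 2 and at 395 and 186 CPM for Z/Z 1 and Z/Z 2, and the cell with the highest count among all TECs of WT 2, an mTEC2-like cell, held 243 of 462 Cdkn1c UMIs.

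The genes most like the remaining members over the 26 clusters were Golga7 for Ccnd1 (Pearson's r = 0.73), Rbm3 for Ccnd2 (0.78), Adcy9 for Ccnd3 (0.79), Map3k6 for Cdkn1a (0.89), Idh2 for Cdkn1b (0.76), Klhl15 for Cdkn1c (0.72) and Tmem14a for Cdkn2c (0.81).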
